A study of Arabidopsis thaliana with 38 samples.

Results

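The probe sets described here had a lower signal in RNAi-C1, an Arabidopsis line with reduced HSP90, while the signals of the other HSP90-RNAi lines of the same experiment were not lowered to a like degree. They were selected on these values, by a rule on line means of log2(signal + 16): a mean signal above 100 in Control-1 and Control-3, a change of -0.7 or less in RNAi-C1 against those control lines averaged, and changes above -0.3 in both RNAi-A2 and RNAi-B1. Of 22746 probe sets, 114 fitted the rule. EXPA8, GH9B13 and AT4G16260 were to be left out by name, but each was below -0.3 in RNAi-B1 (-0.78, -0.41 and -0.46), so this removed 0 probe sets. The probe table names a single gene for 49 of the 114, several genes for 5 and no gene for 60. Members of the last kinds are called here by their probe set numbers.

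RNA of the aerial parts of 14-day-old Col-0 background seedlings, pooled per sample and grown on GM medium in long days, was hybridised to 38 ATH-1 arrays. They cover 35 biological samples from 13 lines. RNAi-A1, RNAi-A2, RNAi-A3, RNAi-B1 and RNAi-C1 carry an HSP90 hairpin under the cauliflower mosaic virus 35S promoter. The hairpin of the A lines and that of RNAi-B1 are made from separate stretches of HSP90.1, and that of RNAi-C1 from HSP90.2. RNAi-C1 is the only line with this construct, and the place of its insert in the genome was not determined, so construct, insert and line cannot be told apart. Control-1, Control-2 and Control-3 carry the vector without HSP90 sequence. The HSP90-TDNA lines each carry a T-DNA insertion in 1 isoform, HSP90.1 in HSP90.1-TDNA, HSP90.2 in HSP90.2-TDNA and HSP90.3 in HSP90.3-TDNA. The hsp90.2-3 line has a point mutation in the ATP-binding domain of HSP90.2, and Col-0 is the wild type. RNAi-A1, RNAi-A3 and Control-2 made up experiment 1, with 2 samples each. Experiment 2 held RNAi-A2 with 2 samples, and Control-1, Control-3, RNAi-B1 and RNAi-C1 with 3 each. The HSP90-TDNA lines and Col-0 made up experiment 3, with 3 samples each. The experiment of hsp90.2-3 (3 samples) is not stated, and it was set against Col-0.

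HSP90 is a chaperone that holds client proteins, many of them kinases and receptors, in a form that can be activated. In plants its cytosolic isoforms take part in development, in immunity and in the response to heat. Several of the named members encode peroxidases, GDSL lipases and pectin enzymes, which are secreted proteins. Secreted proteins of these kinds can cross-link, modify or coat the plant cell wall.

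The values are MAS5 signals. Leaving out the outlying first array of sample 2 of RNAi-A3 (Pearson correlation with the median profile 0.499), array medians ranged from 171 to 221 and the correlations from 0.975 to 0.987. Named probe sets of root, flower and phloem markers were used to check the tissue, since no gene of the leaf photosynthesis list has a named probe set here. Line means were 7.81 to 155.5 over 3 root markers and 4.34 to 32.5 for the flower marker AT5G07230. They were 3546 to 6622 for SWEET11, a sucrose exporter of leaf phloem parenchyma. The summed signal of the 3 root markers was 150 to 259 in RNAi-C1 and 113 to 298 in Control-1 and Control-3. That of 4 epidermis and trichome markers was 241 to 386 in RNAi-C1, 323 to 426 in Control-1 and 408.5 to 467 in Control-3, so RNAi-C1 overlapped Control-1 but not Control-3. Of its 2 tested genes, FMA, a regulator of guard cell fate, was called lower in RNAi-C1 (-0.45, limma adjusted p = 0.0395), and SPCH, which starts the stomatal lineage, had -0.62 (adjusted p = 0.24). SPCH had like values in RNAi-A2 (-0.62) and RNAi-B1 (-0.58), where FMA had 0.03 and 0.10. The listed genes too dim to test went both ways in RNAi-C1, with -0.69 for CR4 and 0.48 for TRY. The part of these markers in the results was not tested. In whole tissue, fewer cells of a type and less RNA per cell cannot be told apart. The signals of the cytosolic HSP90 genes themselves are not analysed here, since the probe table does not name them.

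The rule fixed the sign of every change in RNAi-C1, so the following values are a description without a test. Changes in RNAi-C1 ran from -3.64 to -0.70 on the log2(signal + 16) scale, with a median of -0.91. On that scale these are decreases of 12.5-fold, 1.63-fold and, at the median, 1.88-fold. A decrease of at least 1 was seen for 43 members and of at least 2 for 4. In 101 of the 114, every RNAi-C1 sample was below every sample of Control-1 and Control-3, a pattern held by 6.78% of the 16651 probe sets tested. In 92 of the 114 the change in RNAi-C1 also passed an adjusted p of 0.05 in limma, as 3.47% of all probe sets tested did in this direction, but nothing is read from this since the same contrast chose the members. Median changes were 0.063 in RNAi-A2 and 0.043 in RNAi-B1, and 44 members were above 0 in both. Control-3 differed from Control-1 by at least 0.3 in either direction in 25 members, with a median difference of 0.041. Without the step on RNAi-A2 and RNAi-B1, 185 probe sets would have fitted, and 71 of these were at -0.3 or lower in at least 1 of those lines.

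Values near the thresholds were close together. Just inside the limit for RNAi-C1 were 261470_at (-0.70), AT1G78620 (-0.70), a phytyl-phosphate kinase of tocopherol synthesis, and AT3G16670 (-0.71), and just outside were 263480_at (-0.698), AT5G44400 (-0.696) and AT1G55450 (-0.696). For RNAi-A2, 252011_at (-0.299), PRA1.B4 (-0.292) and AT2G41090 (-0.287) were inside, and AT5G45950 (-0.304), AT4G04460 (-0.322) and AT3G47010 (-0.339) outside. For RNAi-B1, AT3G04640 (-0.295), AT1G03440 (-0.284) and AT1G05310 (-0.27) were inside, and 247553_at (-0.341), 257053_at (-0.349) and 256356_s_at (-0.359) outside. For the control signal, AT1G01250 (103), AT1G16310 (104) and AT4G18425 (106) were inside, and 258962_at (99.6), 262454_at (97.0) and AT2G35910 (94.8) outside.

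**Figure D1:**
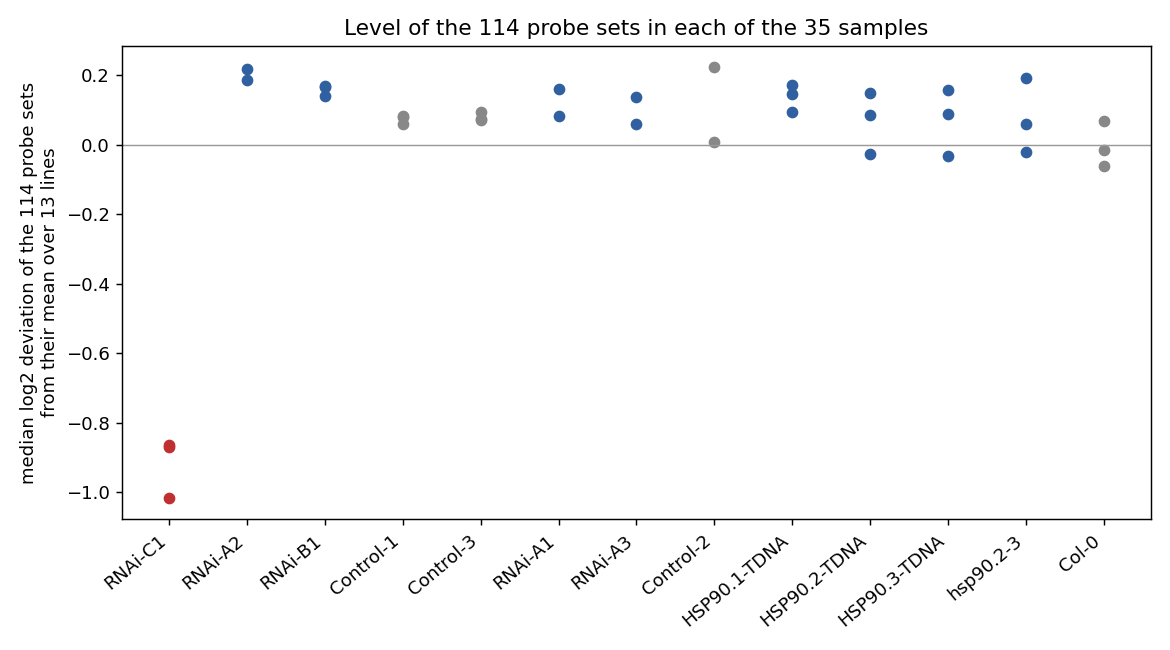
Each point is 1 of the 35 biological samples, grouped by line on the x axis; the y axis is the median, over the 114 probe sets, of the log2(signal + 16) deviation from the mean of the 13 line means, with RNAi-C1 in red, controls in grey and other lines in blue. The 3 RNAi-C1 samples sit between -1.02 and -0.86, as the selection requires, and the other 32 samples between -0.06 and 0.22.

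The largest decreases belonged to probe sets with no single gene. For 258183_at the signals were 16.4, 33.8 and 53.5 in RNAi-C1, against 547 to 628 in the 6 samples of Control-1 and Control-3. For 247648_at they were 5.90, 6.45 and 4.65 in RNAi-C1, against 137 to 236. For 257890_s_at, whose probes fit 2 genes, they were 7.33, 10.7 and 4.20, against 139 to 181. These 3 probe sets thus stood at a small part of the control signal in each RNAi-C1 sample, with no overlap. Outside experiment 2 the lowest signal of 258183_at was 349, in RNAi-A1, and that of 247648_at was 132, in HSP90.1-TDNA. The decreases of these probe sets, and those of 253191_at (-2.39) and 263909_at (-1.88), were larger than that of any member with a named gene.

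Among named members the largest decrease was that of AT5G51890, a class III peroxidase linked to lignification of xylem vessels. Its signals were 269, 236 and 350 in RNAi-C1. They were 1047, 982 and 990 in Control-1 and 1153, 1093 and 1053 in Control-3. They were 1225 and 1271 in RNAi-A2, and 1154, 1069 and 1060 in RNAi-B1. Every sample outside RNAi-C1 was above the highest RNAi-C1 value, and the line means of 285 ± 58.9 (SD, n = 3) and 1053 ± 64.2 (SD, n = 6, both control lines) differed by -1.84 on the log2 scale. In experiment 1 the signals were 881 and 876 in RNAi-A1, 931 and 901 in RNAi-A3 and 789 and 857 in Control-2. In the HSP90-TDNA lines they ran from 1119 to 1910, against 1237, 1237 and 1261 in Col-0. The hsp90.2-3 samples had 1526, 1119 and 1463, which spanned the Col-0 values. The changes were 0.09 in RNAi-A1, 0.15 in RNAi-A3 and 0.12 in hsp90.2-3, with limma standard errors of 0.18, 0.18 and 0.15 and adjusted p-values of 1, 1 and 0.705. The other peroxidase, AT2G37130, changed by -0.82 in RNAi-C1. Its value in hsp90.2-3 was 0.63 ± 0.23 (standard error; limma adjusted p = 0.0889).

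Also among the largest decreases of named members were those of 3 GDSL-type lipases or esterases, a large family of secreted hydrolases. AT5G40020 (-1.51), which is not a lipase, ranked between them. AT1G33811 had signals of 554, 443 and 579 in RNAi-C1, against 1467 to 1638 in Control-1 and Control-3, a change of -1.55. AT1G29660 had 724, 749 and 770, against 1868 to 2342, a change of -1.43. AT2G04570 had 231, 199 and 150, against 481 to 631, a change of -1.40. None of the 3 overlapped with any other sample of the series. The lowest signals outside RNAi-C1 were 979 for AT1G33811 and 238 for AT2G04570, both in sample 2 of hsp90.2-3, and 1591 for AT1G29660 in the same sample. In hsp90.2-3 their changes against Col-0 were -0.24, -0.25 and -0.20, with adjusted p-values of 0.312, 0.302 and 0.562 (limma), and standard errors of 0.14 to 0.18. In RNAi-A1 they were 0.01, 0.04 and 0.12, each with an adjusted p of 1.

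Of the 14 genes on the list of GDSL lipases, 12 could be tested by name. In RNAi-C1, 8 of these 12 were lower at an adjusted p of 0.05 (0 higher), with a median of -0.70, where 3.47% of all probe sets were called lower and their median was 0.075. Of the 8, 3 are the members just described, chosen on this same contrast. The list was written with part of the study's category lists for this line known and is not independent evidence. AT5G45950 (-0.92) and AT1G75900 (-0.74) missed membership through their RNAi-A2 values of -0.304 and -0.39, and AT5G18430 was at -0.49 in RNAi-B1. In hsp90.2-3, 3 of the 12 were lower and 0 higher, where 3.56% of all probe sets were called lower and 5.25% higher. The median was -0.24, against -0.029 over all probe sets.

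Pectin-acting enzymes made up 4 members. AT5G41870, a polygalacturonase-type protein, changed by -1.39, but its samples were scattered, with 29.4, 17.7 and 55.6 in RNAi-C1 against 61.2 to 209 in the control lines. AT3G10720, a pectin methylesterase, had 713, 682 and 624 against 1147 to 1548, a change of -0.96. AT1G05310, also a pectin methylesterase, and AT1G60590, of the polygalacturonase type, changed by -0.77 and -0.71. Only AT3G10720 was called in a comparison with controls outside experiment 2, as described for hsp90.2-3. Of 29 listed genes of pectin modification 18 were tested, and 4 were lower and 0 higher in RNAi-C1, with a median of -0.38. Over all probe sets tested, 3.47% were called lower in RNAi-C1, and the median was 0.075. Of these 4, AT3G10720 and AT1G60590 are members chosen on that contrast. In hsp90.2-3, 1 of the 18 was lower and 2 were higher, with a median of -0.073, where 3.56% of all probe sets were called lower and 5.25% higher.

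Other lists of wall growth held no member. Over all probe sets tested, 3.47% were called lower in RNAi-C1, with a median change of 0.075. In hsp90.2-3, 3.56% were called lower and 5.25% higher, with a median of -0.029. Of 10 tested expansins, which loosen walls, 2 were lower and 0 higher in RNAi-C1 (median -0.13), and 4 were lower and 3 higher in hsp90.2-3 (median -0.27). EXPA8, which the rule names to be left out, is 1 of the 2 lower in RNAi-C1. Of 6 xyloglucan endotransglucosylase/hydrolases, which recut xyloglucan, 2 were lower and 0 higher in RNAi-C1 (median -0.28), and 1 was lower and 0 higher in hsp90.2-3 (median 0.23). Of 6 tested genes of the touch and rapid stress list, 1 was lower and 0 higher in RNAi-C1 (median -0.91). In RNAi-B1 0 were called, with a median of -0.99, and in hsp90.2-3 0 were lower and 2 higher (median 0.13). The other lists had at most 2 tested genes each, among them AT5G51890 on the list for xylem and secondary wall.

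**Figure D2:**
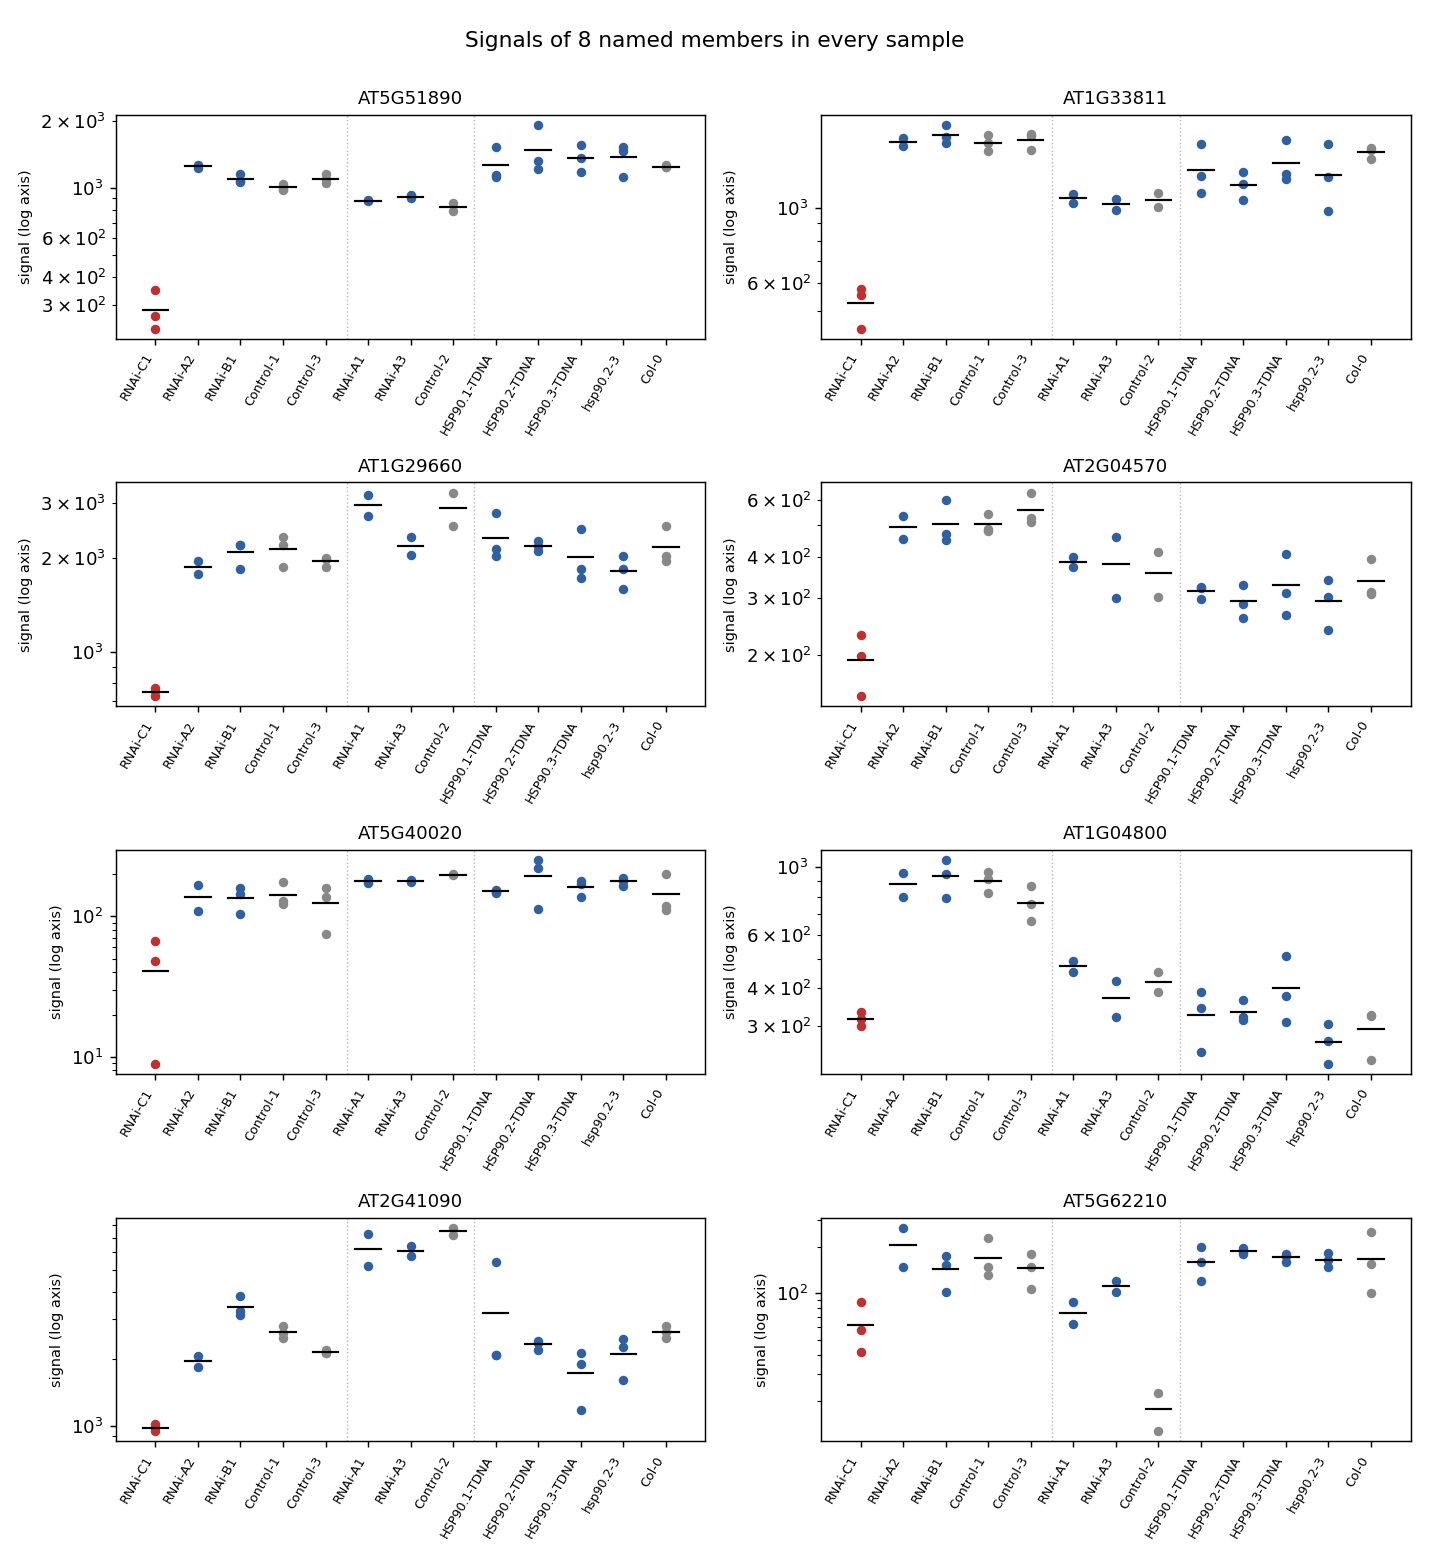
Each panel plots the signal (log axis) of 1 named member in every sample; points are biological samples, black bars are line means, red marks RNAi-C1, grey the control lines and blue the other lines, and dotted lines separate experiment 2, experiment 1 and the lines set against Col-0. For AT5G51890 and the lipases RNAi-C1 is below every other sample, whereas AT1G04800 in RNAi-C1 (298 to 334) is within the range of the Col-0, HSP90-TDNA and hsp90.2-3 samples.

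Further secreted or wall proteins were AT5G40020, of the thaumatin family, with a change of -1.51, and AT1G04800 and AT3G04640, glycine-rich proteins, with -1.35 and -1.01. AT5G15780 and AT3G16670, of the pollen Ole e 1 family, had -1.05 and -0.71. The subtilase AT4G21650 (-0.93), the DUF642 protein AT5G11420 (-0.78) and AT1G22690, a GASA-type peptide of gibberellin-regulated genes (-0.84), also belonged here. AT5G40020 was dim, with 66.3, 48.1 and 8.94 in RNAi-C1 against 75.3 to 174 in the control lines, and its sample values did not overlap.

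Proteins with calcium- or lipid-binding domains were AT2G41090, a calmodulin-like protein (-1.26), AT3G10300, with EF-hands (-0.83), and AT4G34150, with a C2 domain (-0.81). AT2G41090 had 944, 1019 and 978 in RNAi-C1, 2485, 2817 and 2612 in Control-1 and 2120, 2198 and 2116 in Control-3. Its RNAi-B1 signals of 3805, 3148 and 3259 were the highest of experiment 2. Outside that experiment it reached 7217 and 7749 in Control-2, and 1 sample of HSP90.1-TDNA had 5409 against 2086 and 2086 in the others. No sample of any line was as low as those of RNAi-C1.

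Proteins of membrane traffic and shape were PRA1.B4 (-1.06) and PRA8 (-0.72), prenylated RAB acceptors, and AT1G68230 (-0.73), a reticulon. Transport and redox proteins were AT1G16310, a cation efflux carrier (-0.84), AT1G61890, of the MATE family (-0.77), AT3G62950, a glutaredoxin (-0.80), AT5G65840, of the thioredoxin superfamily (-0.75), and MSRB6, a methionine sulfoxide reductase (-0.74). At the cell surface were AT5G19240, GPI-anchored (-0.95), AT5G03350, with a legume lectin-type domain (-0.91), and AT1G03440, with leucine-rich repeats (-0.85). These groups hold 31 of the 49 named members, and they were formed after the values were seen, so no test was made of them. Other large decreases were those of AT3G26450, of the major latex protein family (-1.17), AT5G62210, similar to the embryo-specific protein ATS3 (-1.15), AT5G07080, of the HXXXD acyltransferases (-1.03), and AT3G22240 (-0.97). No pair of named members lay next to each other, or within 10 genes of each other, in the order of the TAIR10.1 gene table (0 of 49 placed members).

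Control lines of the other experiments did not all have the level of Control-1 and Control-3 for these genes. Col-0 was at least 0.7 below those lines for 19 members (16.7%, against 4.91% of all probe sets tested) and at least 0.7 above for 6 (8.07% of all). Control-2 was at least 0.7 below for 17 (14.9%, against 3.62% of all) and above for 15 (12.1% of all). The rule's contrast holds the Control-1 and Control-3 values too, so these shares are a description. Experiment and line cannot be told apart in these differences. The following counts reuse the RNAi-C1 values that chose the members, so they are a description and nothing is read from their distance to the shares over all probe sets. In RNAi-C1, 53 of the 114 members were below every one of the other 32 samples (1.48% of all probe sets tested). RNAi-C1 was at least 0.7 below Col-0 for 70 members (6.43% of all) and at least 0.7 below Control-2 for 77 (8.34% of all). Its mean was above that of Col-0 for 11 members and above that of Control-2 for 12. AT1G04800 shows this, with 298, 315 and 334 in RNAi-C1 and 326, 323 and 231 in Col-0, against 663 to 968 in Control-1 and Control-3. AT3G10720 had 462, 847 and 929 in Col-0, which spanned its RNAi-C1 signals.

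Experiment 1 asked whether the members changed in RNAi-A1 and RNAi-A3, with samples that the rule did not use. In RNAi-A1, limma called 0 members lower (0.00601% of all probe sets tested were called) and 0 higher (0% of all). At an unadjusted p of 0.05, 4 were lower and 5 higher, where 4.29% of all probe sets passed in either direction. A test on each comparison's own samples, without a pooled spread, called 0 in both lines after adjustment, but 2 samples against 2 leave it little power. In RNAi-A3, limma with the spread pooled over all lines called 0 lower (0% of all) and 1 higher (0.012% of all). At an unadjusted p of 0.05 in that fit, 4 were lower and 4 higher (5.54% of all in either direction). These unadjusted counts moved with single samples, in RNAi-A1 to 2 lower without sample 2 of RNAi-A1 or of Control-2 and to 3 higher without sample 1 of either, and in RNAi-A3 to 1 lower and 2 higher without sample 1 of Control-2, to 8 higher without its sample 2 and to 1 higher without sample 2 of RNAi-A3. The median change was 0.013 in RNAi-A1 and -0.011 in RNAi-A3, against 0.0098 and -0.0087 over all probe sets. Changes ran from -1.49 to 1.41 in RNAi-A1 and from -0.69 to 1.93 in RNAi-A3. A change of -0.7 or less, as required in RNAi-C1, was reached by 5 members in RNAi-A1 and 0 in RNAi-A3, and by 1.45% and 2.13% of all probe sets tested. One of 0.7 or more was reached by 3 and 6 members, and by 0.727% and 0.895% of all. These comparisons share Control-2, with 2 samples a line, and sample 2 of RNAi-A3 rests on 1 array.

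The member called in RNAi-A3 was AT5G62210. It had 120 and 102 in RNAi-A3, 62.7 and 87.0 in RNAi-A1 and 12.8 and 22.7 in Control-2. Both RNAi lines were above Control-2 in every sample, and of these 4 values only that of sample 1 of RNAi-A3 lay within the control signals of experiment 2 (106.5 to 226), the others being lower. The change was 1.93 ± 0.33 (standard error, limma adjusted p = 0.0294) in RNAi-A3 and 1.41 ± 0.33 (adjusted p = 0.265) in RNAi-A1. The difference between these lines was not tested. Control-2 minus the mean of the experiment 2 controls was -2.34 on the log2 scale. With all 4 control lines as the reference the change in RNAi-A3 was 0.16 (adjusted p = 0.716). The call was also lost without sample 1 of Control-2 (adjusted p = 1) and without sample 1 of RNAi-A3 (adjusted p = 0.112).

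In experiment 3 limma called 0 members lower and 0 higher in each HSP90-TDNA line. Over all probe sets, 0.018% were called lower and 0.00601% higher in HSP90.1-TDNA, 0.00601% lower and 0% higher in HSP90.2-TDNA, and 0.042% lower and 0.048% higher in HSP90.3-TDNA. At an unadjusted p of 0.05, 2, 2 and 8 members were lower and 18, 9 and 16 were higher, in that order, where 7.46%, 7.19% and 9.09% of all probe sets passed in either direction. The methods' t-test called 0 in each line after adjustment. Median changes of 0.12, 0.11 and 0.088 compare with -0.0084, -0.027 and -0.016 over all probe sets. A change of 0.7 or more was reached by 13, 4 and 13 members (1.15%, 1.04% and 2% of all probe sets tested). One of -0.7 or less was reached by 1, 0 and 3 (0.703%, 0.583% and 0.438% of all). The lines share Col-0, so these medians and counts are not independent of each other. Sample 1 of Col-0 weighed on the counts at an unadjusted p of 0.05. Without it 4, 6 and 8 members were higher and 1, 1 and 10 lower, against 3.93%, 5.98% and 8.51% of all probe sets in either direction. Leaving out sample 2 of HSP90.1-TDNA or its sample 3 gave 9 and 10 higher in that line, leaving out sample 2 of HSP90.3-TDNA or its sample 3 gave 7 and 10, and HSP90.2-TDNA had 20 without its sample 1, 14 without its sample 3 and 17 without sample 3 of Col-0. With any 1 sample of these lines or Col-0 left out, the members lower numbered 1 to 6 in HSP90.1-TDNA, 1 to 5 in HSP90.2-TDNA and 4 to 10 in HSP90.3-TDNA. AT4G27657 shows the part of that Col-0 sample, with 8.28 in it against 243 and 240.3 in the others, and its changes of 1.34, 0.93 and 1.03 were 0.20, -0.21 and -0.10 without it. AT3G62950, the glutaredoxin, had 29.0 against 187 and 192, and its changes of 0.97, 0.87 and 1.08 were 0.24, 0.14 and 0.35 without it.

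**Figure D3:**
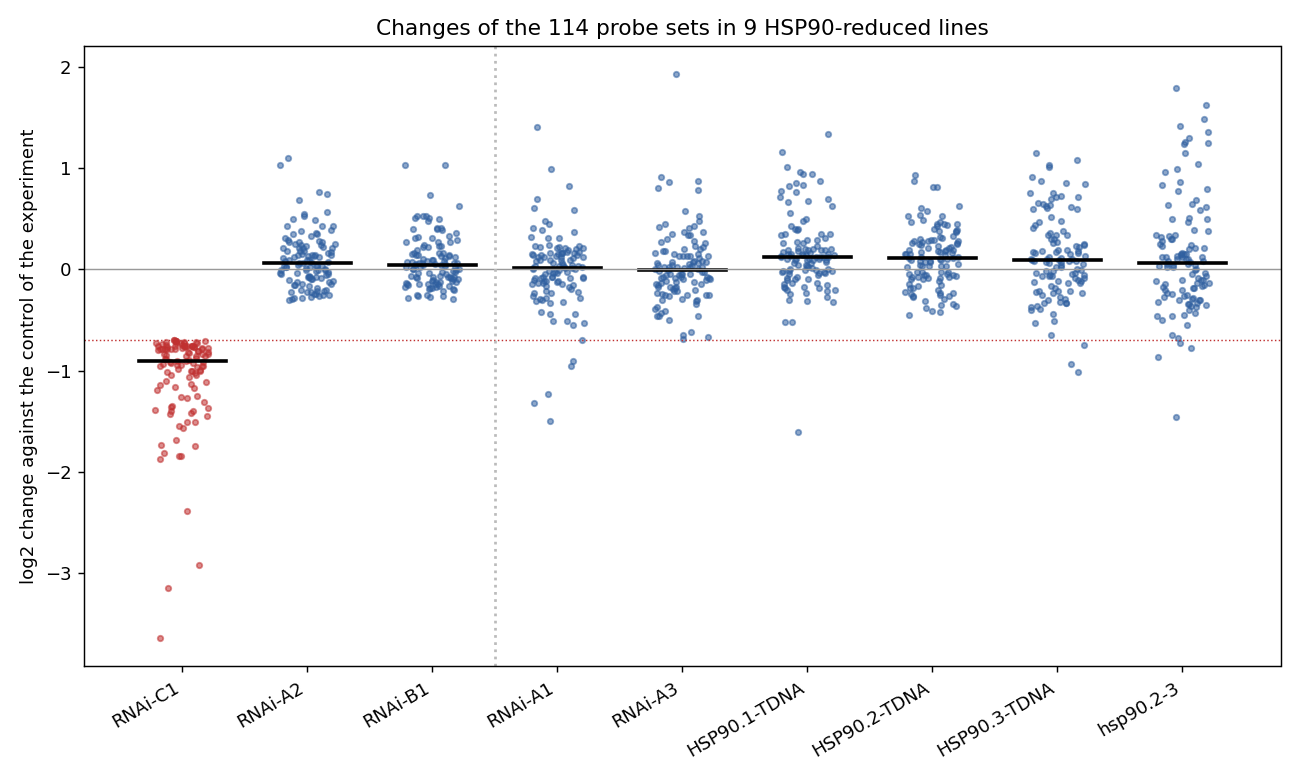
Log2(signal + 16) changes (y axis) of the 114 probe sets in 9 HSP90-reduced lines (x axis), each against the control of its comparison; points are probe sets, black bars medians, and the dotted red line the selection limit of -0.7 in RNAi-C1. The rule fixed the first 3 columns, with a median of -0.91 in RNAi-C1, and medians in the other lines run from -0.011 to 0.12.

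In hsp90.2-3 the members went both ways. Limma called 6 of the 114 lower (5.26%, against 3.56% of all probe sets tested) and 10 higher (8.77%, against 5.25% of all). These shares are near the background of this line. The median change was 0.066, against -0.029 over all probe sets, and values ran from -1.46 to 1.79. Of the 43 members with a decrease of at least 1 in RNAi-C1, 0 were lower and 1 was higher (266139_at, 1.63). Of the 71 with smaller decreases, 6 were lower and 9 higher. In hsp90.2-3 the 5 members with the largest decreases in RNAi-C1 had values from -0.30 (257890_s_at) to 0.16 (258183_at).

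The members lower in hsp90.2-3 were led by AT5G03350, which had 2197, 1087 and 1338 against 3098, 5305 and 4125 in Col-0. The groups did not overlap, with a change of -1.46 ± 0.24 (standard error, limma adjusted p = 0.000365). AT3G22240 had 13640, 7959 and 6527 against 15160, 14120 and 16870, a change of -0.78 ± 0.24 (adjusted p = 0.0399). MSRB6 had 459, 227 and 465 against 499, 824 and 568, a change of -0.73 ± 0.21 (adjusted p = 0.0288). AT1G03440 had samples close together within each line, with 294, 264 and 273 against 415, 397 and 425. Its change was -0.55 ± 0.14 (limma adjusted p = 0.0156), and the call was lost in 2 of 6 fits with a sample left out. The unnamed 252711_at (-0.50) and 258589_at (-0.46) were lower too, with adjusted p-values of 0.013 and 0.00458.

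The members higher in hsp90.2-3 included AT4G34150, the C2 domain protein, with 5912, 4618 and 5891 against 1286, 1819 and 3089 in Col-0. Its change was 1.48 ± 0.38 (limma adjusted p = 0.0152). AT3G10300, the EF-hand protein, had 1563, 1091 and 1325 against 638, 620 and 990, a change of 0.83 ± 0.18 (adjusted p = 0.00517). AT3G10720, the pectin methylesterase, had 1867, 1182 and 2267 against 462, 847 and 929, a change of 1.24 ± 0.31 (adjusted p = 0.0126). Thus both calcium- or lipid-binding members other than AT2G41090 (-0.35, adjusted p = 0.437) were above every Col-0 sample. The others were AT5G56980 (1.26, adjusted p = 0.00526), AT5G19240 (1.25, 0.0412), AT1G61890 (0.97, 0.0306), 253259_at (1.79, 0.0153), 266139_at (1.63, 0.0184), 261470_at (1.04, 0.0396) and 263443_at (0.68, 0.0245), each value an adjusted p from limma. Of the 16 members called, only 266139_at overlapped with Col-0. Some of the largest increases rest on dim Col-0 signals, with 87.2, 10.9 and 23.2 for 266139_at and 13.8, 41.6 and 40.6 for 253259_at. AT5G56980 was dim there too, with 41.9, 80.6 and 69.1. In hsp90.2-3, 253259_at had 230, 226 and 51.1, so its sample 3 was close to Col-0.

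**Figure D4:**
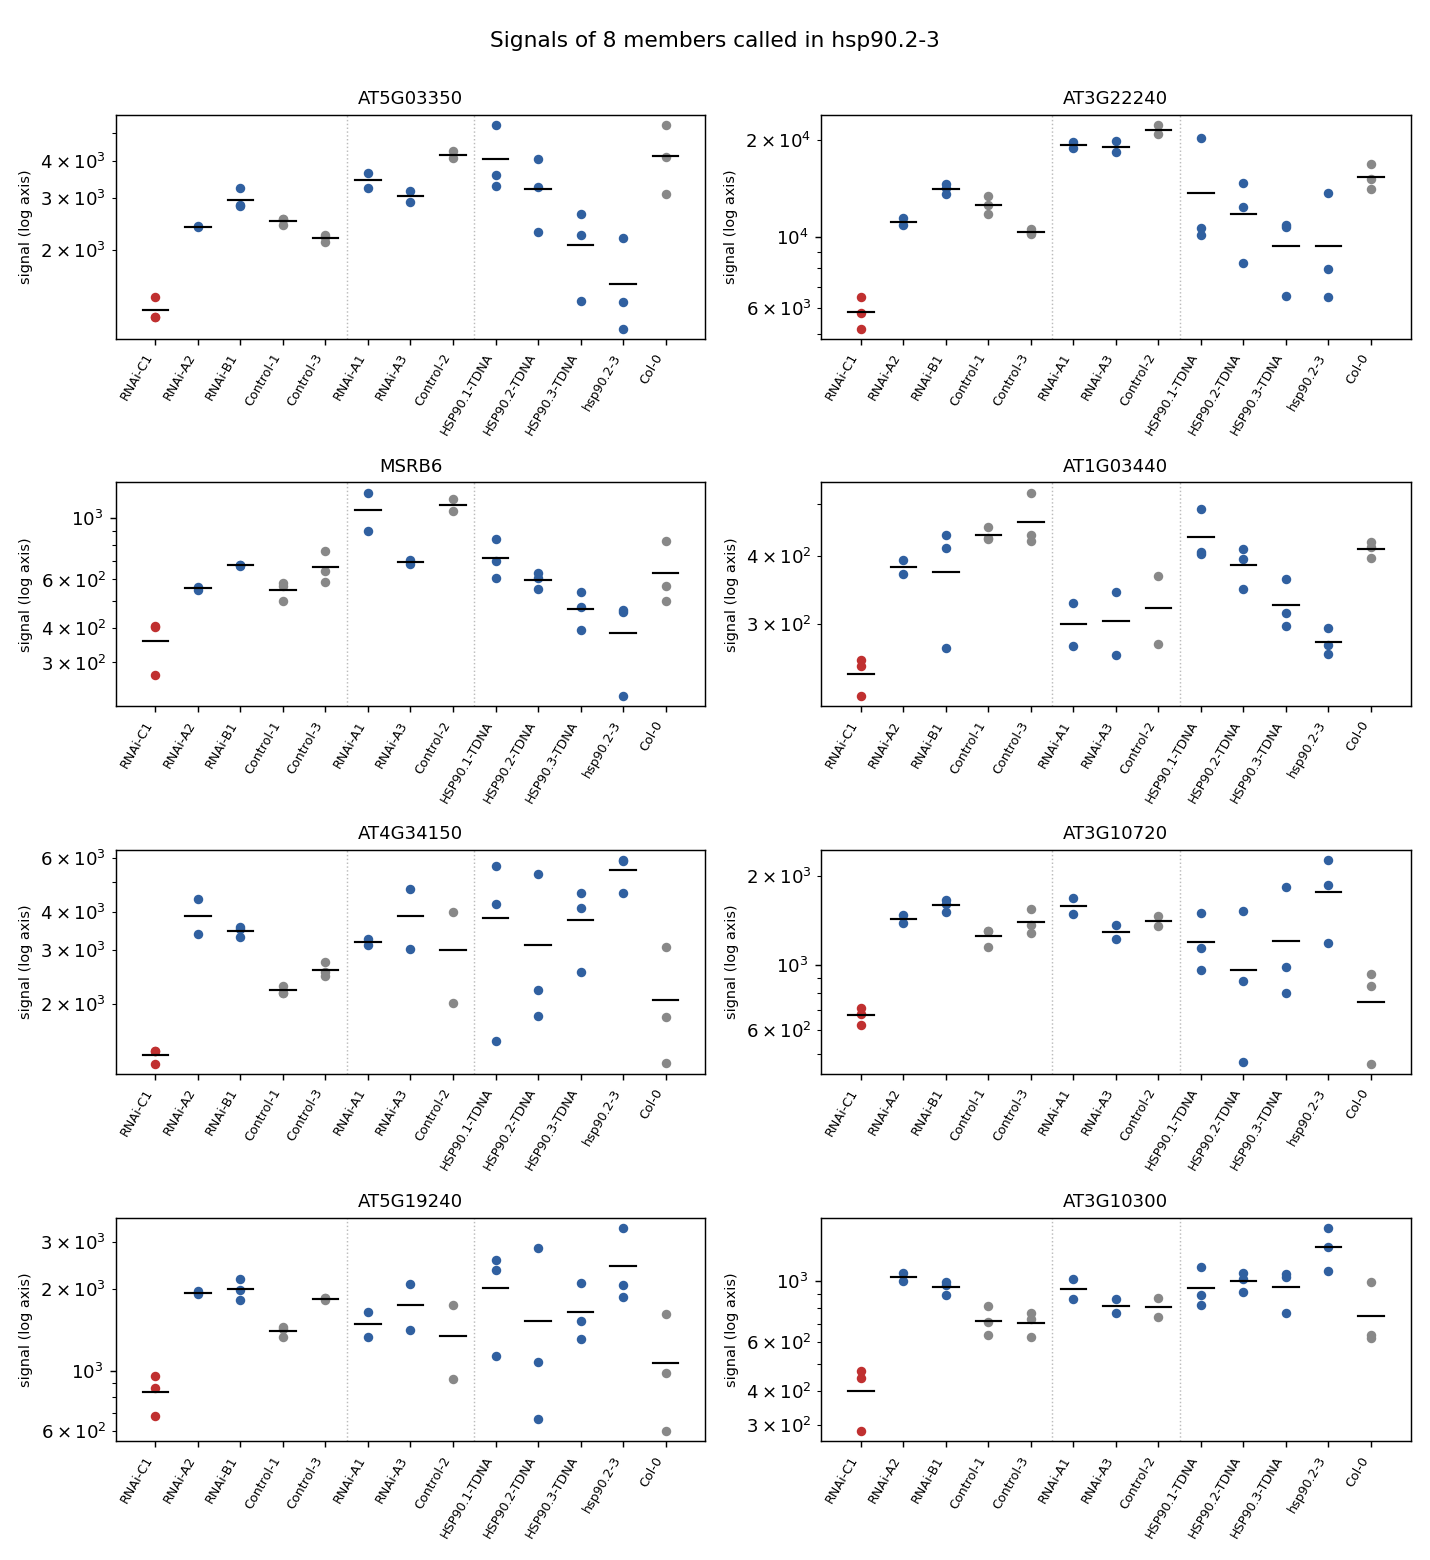
Signals (log axis) in every sample of 4 members that were lower in hsp90.2-3 (upper panels) and 4 that were higher (lower panels); points are biological samples, black bars line means, red RNAi-C1, grey the control lines and blue the other lines. For AT1G03440 the hsp90.2-3 samples (264 to 294) lie below those of Col-0 (397 to 425), and for AT4G34150 they (4618 to 5912) lie above (1286 to 3089).

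These calls rest on few samples and on a spread pooled over all lines. With only hsp90.2-3 and Col-0 in the limma fit, 1 member was lower and 1 higher, and the methods' t-test called 0 after adjustment. Of the 16, 7 were kept without sample 1 of hsp90.2-3, 7 without sample 2 and 9 without sample 3, and 8, 7 and 13 without samples 1, 2 and 3 of Col-0. The count called higher was 1 without sample 1 of hsp90.2-3, 4 without sample 1 of Col-0 and 6 without its sample 2, and the count called lower was 3 without sample 2 of hsp90.2-3 or of Col-0. AT5G03350, AT3G10300 and 258589_at stayed called in all 6 of these fits. A difference in batch between hsp90.2-3 and Col-0 cannot be told apart from the mutation.

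**Figure D5:**
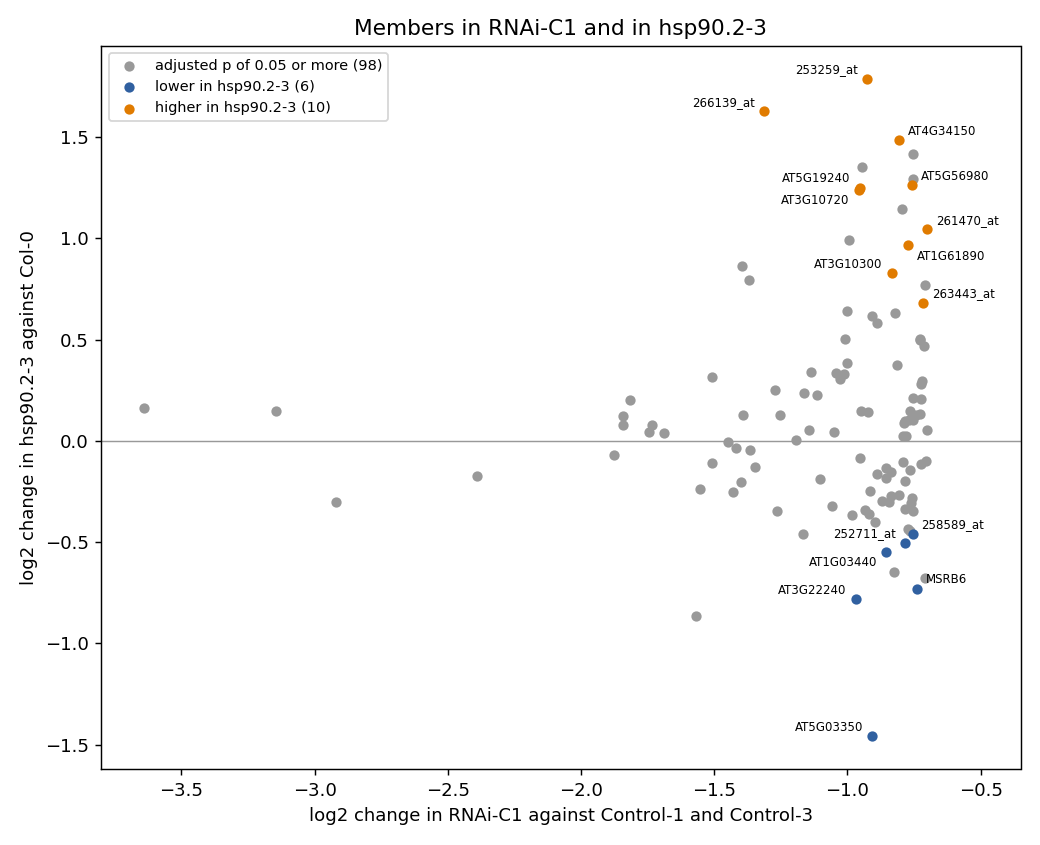
Each point is 1 of the 114 probe sets, with its log2(signal + 16) change in RNAi-C1 (x axis, used by the selection) and in hsp90.2-3 against Col-0 (y axis); orange points were called higher in hsp90.2-3 (10), blue points lower (6) and grey points neither (98). The 5 members with the largest decreases in RNAi-C1 lie between -0.30 and 0.16 on the y axis.

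The difference between hsp90.2-3 and the mean of the HSP90-TDNA lines was tested after the data had been seen. It needs no Col-0 sample, but a difference in batch between hsp90.2-3 and the HSP90-TDNA lines cannot be told apart from the genotypes. Limma called 10 members lower in hsp90.2-3 (2.85% of all probe sets tested were) and 2 higher (3.15% of all). Those lower were led by AT5G03350 (-0.98 ± 0.19, adjusted p = 0.0031) and AT1G60590 (-0.77 ± 0.18, adjusted p = 0.00947), the polygalacturonase-type protein, whose change against Col-0 just missed the threshold (-0.68, adjusted p = 0.0502). AT1G60590 had 193, 295 and 179 in hsp90.2-3 and 174 to 585 in the HSP90-TDNA lines, so the samples overlapped. AT5G56980 (0.86 ± 0.23, adjusted p = 0.0218) and 253259_at (1.27 ± 0.38, adjusted p = 0.0422) were higher. Without sample 1, 2 or 3 of hsp90.2-3, the members lower numbered 5, 3 and 4. The members higher numbered 0, 3 and 3 in these fits, and between 1 and 6 when a sample of an HSP90-TDNA line was left out (1 without sample 1 of HSP90.3-TDNA and without samples 1 or 3 of HSP90.2-TDNA, 6 without its sample 2).

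Over the 6 comparisons outside the selection, 97 members were called in none and 17 in 1 each. Of these calls 1 was in RNAi-A3 and the others in hsp90.2-3. Of all probe sets tested, 3.56% were called lower and 5.25% higher in hsp90.2-3. Each of the other comparisons called at most 0.048% in either direction, so few calls are no trait of the members. For 23 members no change outside experiment 2 was larger than 0.3 in either direction. The share of all probe sets was not taken for this count.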

How the data were processed

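The deposited intensity values are linear signals of each array. The submitters' processing notes name MAS5 (no version given) for how the authors made them, while the study's methods name PLIER. Array means trimmed at both ends were 499.7 to 499.9, as under MAS5 scaling. Each is relative to its array's scaling target. No detection calls were used.

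All fits used limma 3.58.1 under R 4.3.3, on log2(signal + 16) of all 35 biological samples, with technical replicates averaged. The 64 control probe sets and 1 outlying array of RNAi-A3 were left out. Tests covered the probe sets whose highest line mean exceeded a signal of 91.2, the 35th percentile, 16651 in all. All 114 members passed, being above that level in the control lines by the rule. The model held 1 mean per line. Benjamini-Hochberg adjustment ran over these 16651, and an adjusted p under 0.05 was called. The fit was tested on simulated data. Precision is limited by 2 or 3 samples a line. Signals are on the linear scale, and changes of dim probe sets are understated by the offset.

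The members and the 16 gene lists (305 genes, 70 with a named probe set) were chosen with earlier results of these data known. Named members are the 15 with the largest decreases that have 1 gene, those called outside the selection (at most 10 per comparison and direction), those on a list and those at the thresholds, and others are named as members of a role group. Genes were named by the probe table (13513 probe sets with 1 gene, 503 with several, 8730 with none) and the TAIR10.1 gene table. The motif count planned for promoters was not run here. The alternatives tried were a replicate block, no filter, a filter at the 50th percentile, offsets of 4 and 64, quantile normalization, only the lines compared, duplicateCorrelation, the outlying array kept, the methods' t-test (Welch) with Benjamini-Hochberg (for experiment 1, which has technical replicates, the methods name another test, not run here), all 4 control lines, and each sample left out. The difference between hsp90.2-3 and the HSP90-TDNA lines, and the comparison of control lines between experiments, were added after seeing the data.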

Additional observations from a re-analysis of the deposited data

Results flagged for a closer look

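For 12 members the change in hsp90.2-3 differed from the mean change of the HSP90-TDNA lines, by a test of the difference itself (limma, adjusted over all probe sets tested, each change given as hsp90.2-3 minus the HSP90-TDNA mean on the log2 scale). AT5G03350 (-0.98), AT1G60590 (-0.77), MSRB6 (-0.65), AT4G21650 (-0.62), 253285_at (-0.59), AT2G33850 (-0.56), AT5G25840 (-0.54), AT1G03440 (-0.43), 252711_at (-0.35) and AT5G11420 (-0.33) were lower in hsp90.2-3. AT5G56980 (0.86) and 253259_at (1.27) were higher. The adjusted p-values ran from 0.0031 for AT5G03350 to 0.0475 for AT2G33850. The experiment of hsp90.2-3 is not stated, so batch and genotype cannot be told apart in these differences.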

How the results depend on the processing

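The group had 80 to 141 probe sets with quantile normalization, offsets of 4 or 64, or either control line alone, and 105 to 142 with a sample left out. With Control-1 alone 75 of the 114 stayed and with Control-3 alone 89. In RNAi-A3, 0 members were higher with an offset of 64, with only the lines compared, with duplicateCorrelation and in a t-test on the compared samples alone, and 4 were lower with the outlying array kept. The RNAi-A3 median was 0.011 with quantile normalization, 0.0013 with the 50th percentile filter, -0.036 with duplicateCorrelation and -0.053 with the outlying array. In hsp90.2-3, 10 were lower with the 50th percentile filter. With only the lines compared 1 was lower and 1 higher, with the outlying array 2 and 6, and in the methods' t-test with Benjamini-Hochberg 0 and 0. For hsp90.2-3 minus the HSP90-TDNA lines, 1 was higher with quantile normalization, an offset of 4 or no filter. There 0 were lower and 0 higher with only the lines compared, 4 and 1 with the outlying array, and 2 and 0 in the t-test. With all 4 control lines, which mixes experiments, 14 were lower and 17 higher in RNAi-A1 (median 0.12), 11 and 13 in RNAi-A3 (0.065), 7 and 8 in HSP90.1-TDNA (0.073), 24 and 17 in hsp90.2-3, 12 and 10 in HSP90.3-TDNA (0.017), and 7 and 13 in HSP90.2-TDNA (0.0052). The shares of all probe sets called were not taken for these settings. The counts are thus not read as a result about the members. The cause of these shifts in counts and medians was not tested.

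With a sample left out, the median ranged from -0.11 to 0.086 in RNAi-A1, -0.13 to 0.0904 in RNAi-A3, 0.0082 to 0.088 in hsp90.2-3, and from 0.081 to 0.15, 0.054 to 0.15 and 0.054 to 0.14 in the HSP90-TDNA lines of HSP90.1, HSP90.2 and HSP90.3. In RNAi-A3, 0 to 1 members were lower and 0 to 1 higher. In hsp90.2-3, 3 to 7 were lower and 1 to 12 higher, and 3 to 10 and 0 to 6 for the difference from the HSP90-TDNA lines. No call was made in RNAi-A1 or an HSP90-TDNA line in these fits (0 to 0).

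Same-numbered samples of different lines were compared by their deviations from the line means. In experiment 1, 0 of 6 such pairs correlated above 0.1, in experiment 2 10 of 26, and in experiment 3, with hsp90.2-3 counted beside Col-0, 12 of 30. Median correlations of same-numbered and of other pairs were -0.091 and 0.091, 0.054 and -0.032, and 0.066 and -0.034, in that order. Whether the replicate numbers pair the samples was not tested. With the number as a block, 6 members were lower and 13 higher in hsp90.2-3, 1 was higher in RNAi-A3, and 8 were lower and 2 higher for the difference from the HSP90-TDNA lines. Of 287 refits of the 17 calls of single members, 185 kept the call, 102 lost it and 0 changed sign. The number of arrays limits the precision, and dim members vary most.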
